A study of Rattus norvegicus with 8 samples.

Results

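The Wnt pathway genes described here were all genes whose symbol is Wnt, Fzd, Sfrp, Dkk or Rspo followed by a number, together with 16 further genes: the R-spondin receptors Lgr4, Lgr5 and Lgr6, the coreceptors Lrp5 and Lrp6, Axin1, Axin2, Rnf43, Znrf3, Ctnnb1, Tcf7, Tcf7l1, Tcf7l2, Lef1, Wif1 and Frzb. Of 57 rat genes that fit this rule in the RefSeq annotation, 49 had a probe set with 1 gene symbol and were measured among 14506 genes in all. Fzd7, Fzd10, Lgr6, Rspo4, Tcf7l2, Wnt7a, Wnt11 and Znrf3 were not analysed here. The 49 comprised 17 ligands, 8 Frizzled receptors, 2 coreceptors, 6 genes of the R-spondin module, 10 secreted inhibitors, 3 cytosolic genes and 3 nuclear genes.

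Fetal pancreatic islets of Sprague-Dawley rats were profiled on 8 whole-transcript arrays. Timed pregnant dams were operated on embryonic day 18, either to restrict fetal growth (IUGR, intrauterine growth restriction) or as a sham control, and islets were isolated on embryonic day 19. The islets of a whole litter were pooled for 1 array, which gave 4 sham litters and 4 IUGR litters, each from its own dam. The replicate is the litter, so that differences between fetuses of a litter were not measured, and the labels name no sort of islet cells. Values are RMA signals on the log2 scale. A value of 1 more is a doubling of signal, and levels of different probe sets are not comparable.

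Wnt proteins are secreted, lipid-modified ligands. They bind Frizzled receptors and the coreceptors Lrp5 and Lrp6 at the cell surface, which stops the Axin and Apc destruction complex from degrading beta-catenin, and beta-catenin then enters the nucleus and activates genes with Tcf and Lef factors. R-spondins bind Lgr receptors and hold off the ubiquitin ligases Rnf43 and Znrf3, which otherwise remove Frizzled receptors from the membrane. Secreted Sfrp, Dkk and Wif proteins restrain the pathway. In the developing pancreas Wnt signals come largely from the mesenchyme and are known for supporting growth of the exocrine epithelium.

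The arrays differed as a whole. Signal ranges were narrower in sham replicates 2, 3 and 4 (interquartile range 3.06 to 3.23) than in sham replicate 1 (3.63) and the IUGR litters (3.53 to 3.62), and array-to-array correlations across genes ran from 0.924 to 0.992. The hormone genes that define islets were high in every litter, with Ins1 at 13.15 to 14.01, Ins2 at 13.67 to 14.24, Gcg at 13.33 to 13.94 and Sst at 10.27 to 12.83. Genes of other cells were high as well. The acinar gene Ctrb1 was 13.08 to 14.06, the erythroid gene Hbb-b1 12.99 to 13.86 and the hepatocyte gene Alb 11.69 to 13.98. None of these values measures how pure the islets were. Sham replicate 4 stood apart, with a mean of 12.14 over 12 endocrine markers, where the 3 remaining sham litters had 10.60 to 10.74 and the IUGR litters 10.98 to 11.42. Markers of several other pancreatic and neighbouring cells moved with the groups. All 9 duct markers, all 12 acinar markers and all 12 hepatocyte markers were higher on average in IUGR litters, and all 13 mesenchyme, 10 endothelial, 10 macrophage and 6 erythroid markers were lower. Of 8 lymphocyte markers, 7 were lower. Neural crest and Schwann markers were mixed (2 higher, 3 lower), as were mesothelium markers (2 higher, 1 lower). In pooled tissue of this kind, fewer cells of a type and less RNA per cell cannot be told apart.

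IUGR and sham litters were compared to ask which of these genes differ 1 day after surgery. Lgr4, a receptor for R-spondins, rose 1.80-fold and was the 1 member of 49 past the threshold of 0.05 on the adjusted p (limma, Benjamini-Hochberg over all genes), which is 2.04% of members against 0.248% of all genes (0.234% higher and 0.0138% lower). At an unadjusted p under 0.05 there were 9 members (18.4%), against 26.1% of all genes. Of these, Lgr4, Rnf43, Lgr5, Wnt7b, Fzd6 and Fzd8 were higher in IUGR litters (12.2% of members against 15.4% of all genes), and Wnt2, Wnt8b and Fzd2 were lower (6.12% against 10.7%). The groups did not overlap in 5 members (10.2%, against 15.5% of all genes), namely Lgr4, Rnf43 and Wnt7b on the higher side (6.12% against 10.0%) and Wnt2 and Fzd2 on the lower side (4.08% against 5.45%). The median difference over the 49 members was -0.11 (log2), beside 0.04 over all genes, and 21 members were higher and 28 lower.

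The split between higher and lower members depended on scaling: at an unadjusted p under 0.05 it was 6 to 3 as deposited, 3 to 8 after quantile normalization, 3 to 6 after cyclic loess and 2 to 14 after median centring. The split over all genes moved the same way, from 2233 higher and 1556 lower as deposited to 1517 and 1788, 1565 and 1725, and 687 and 4446 in that order. Median centring moved the median of all genes from 0.04 to -0.19. Without sham replicate 1, 6 members passed the adjusted threshold (12.2%, against 18.9% of all genes) and the split was 3 to 9, beside 3046 higher and 2304 lower over all genes. Without sham replicate 4 the split was 7 to 1, beside 2423 higher and 1283 lower over all genes. The median difference was then -0.03 over the members and 0.01 over all genes.

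**Figure D1:**
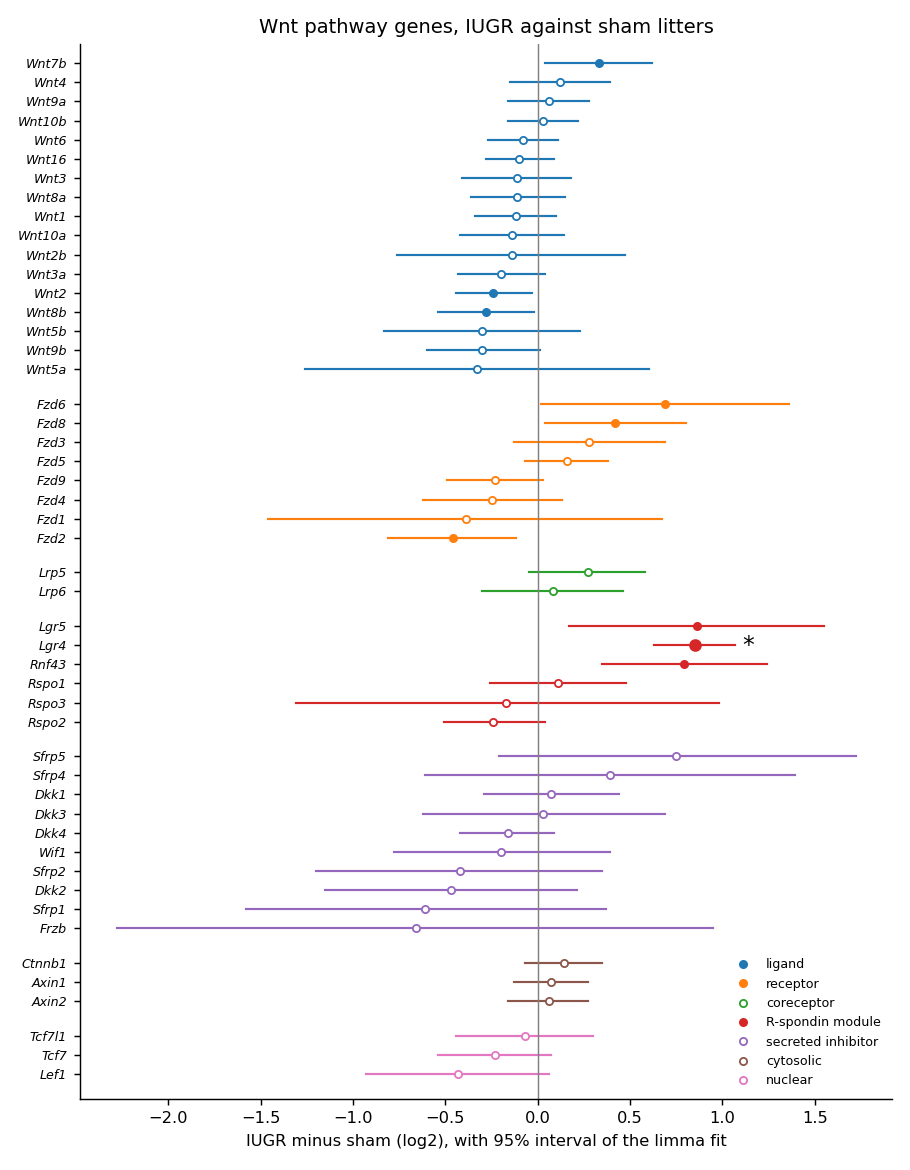
Difference between IUGR and sham litters (log2, x axis) for the 49 measured Wnt pathway genes, grouped by role, with points for the estimate and lines for the 95% interval of the limma fit (4 litters per group). Filled points have an unadjusted p under 0.05, and the star marks Lgr4, the 1 gene past the adjusted threshold (adjusted p = 0.043); the interval of Frzb, which spans 0, is the widest.

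Among the 17 ligands, none passed the adjusted threshold (limma adjusted p from 0.155 to 0.830). At an unadjusted p under 0.05 there were 3, 1 higher (5.88%, against 15.4% of all genes) and 2 lower (11.8%, against 10.7%). In all, 13 of 17 were lower in IUGR litters (76.5%, against 44.9% of all genes), with a median difference of -0.12. On the 5 arrays of wider range, where sham replicate 1 is the 1 sham litter left, 5 of 17 ligands were lower (29.4%, against 51.7% of all genes) and the median was 0.05. The probe sets of 7 ligands lay among the 30% of genes with the lowest mean signal, where a difference is hard to measure. With those dim genes left out of the fit, 7 of 10 ligands were lower (70%) and their median was -0.17. The share of all genes lower was then 29.2%, so dim genes were lower more often than the rest. The 44.9% is therefore not a like background for the dim ligands. Wnt7b, a ligand known from epithelia, was 7.69, 7.74, 7.95 and 7.92 in sham replicates 1 to 4 and 8.00, 8.15, 8.02 and 8.47 in IUGR replicates 1 to 4. Every IUGR litter lay above every sham litter, the closest pair being sham replicate 3 and IUGR replicate 1. The difference was 0.33 ± 0.13 (SE, n = 4 litters per group; limma adjusted p = 0.155). It was 0.14 after quantile normalization (adjusted p = 0.545) and 0.10 after median centring (adjusted p = 0.689), with overlapping groups in both.

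Wnt2, a mesenchymal ligand of the lung and other organs, was 7.42, 7.44, 7.58 and 7.69 in the sham litters and 7.27, 7.24, 7.27 and 7.41 in the IUGR litters. The groups lay side by side without overlap, with a gap of 0.01 between their nearest litters, and differed by -0.24 ± 0.09 (SE; limma adjusted p = 0.159). The Wnt2 difference was -0.47 after median centring, where the groups overlapped, and -0.12 on the 5 arrays of wider range. Wnt8b, a ligand known from the embryonic forebrain, was 6.47 to 6.88 in sham and 6.34 to 6.62 in IUGR litters and differed by -0.28 ± 0.11 (SE; limma adjusted p = 0.171). Its probe set was among the dim ones, the sham and IUGR litters overlapped, and the difference ran from -0.51 after median centring to -0.02 on the 5 arrays of wider range.

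Wnt4, which is expressed in islets and in many epithelia, was 8.25, 8.21, 8.30 and 8.66 in sham litters and 8.56, 8.38, 8.56 and 8.39 in IUGR litters. Sham replicate 4 was the highest of the 8 and the other sham litters were the lowest. The difference was 0.12, with a 95% interval of -0.15 to 0.39. Wnt5a, a ligand of non-canonical signalling made by mesenchyme, was 9.72, 8.96, 8.95 and 8.33 in sham and 8.46, 9.24, 9.24 and 7.70 in IUGR litters. Litters of each group were spread over more than the difference between the groups, which was -0.33 with an interval of -1.26 to 0.60. The other 12 ligands at an unadjusted p of 0.05 or more, among them Wnt1, Wnt2b, Wnt3, Wnt3a, Wnt9b and Wnt10b, differed by -0.30 to 0.06.

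Of the 8 Frizzled receptors, 4 were higher and 4 lower, and none passed the adjusted threshold. Fzd2, a receptor of canonical and non-canonical ligands, was 10.77, 10.44, 10.57 and 10.28 in sham litters and 9.93, 10.26, 10.26 and 9.78 in IUGR litters. All IUGR litters lay below all sham litters, although the gap between sham replicate 4 and IUGR replicates 2 and 3 was narrow. The difference was -0.46 ± 0.15 (SE; limma adjusted p = 0.135), and -0.72 (adjusted p = 0.495) in the 5 arrays of wider range. The mean of 13 mesenchyme markers was also lower, at 11.92 to 12.46 in sham and 10.83 to 11.87 in IUGR litters. Of the 13, 7 were lower at an unadjusted p under 0.05 (53.8%, against 10.7% of all genes). Both Fzd2 and this mean were lowest in IUGR replicate 4. Among the sham litters, however, the mean was highest in replicate 4 (12.46), where Fzd2 was lowest (10.28). The part of mesenchyme in the Fzd2 difference was not tested.

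Fzd6, a receptor of planar polarity signalling, was 9.09, 8.30, 9.22 and 9.69 in sham and 10.00, 9.73, 9.32 and 10.02 in IUGR litters. IUGR replicate 3 lay below sham replicate 4, so the groups overlapped, and the difference was 0.69 ± 0.29 (SE; limma adjusted p = 0.182). Fzd8 was 8.68, 8.08, 8.27 and 8.73 in sham and 8.63, 8.88, 8.98 and 8.95 in IUGR litters. Sham replicates 1 and 4 lay above IUGR replicate 1, and the difference was 0.42 ± 0.16 (SE; limma adjusted p = 0.162). It shrank to 0.18 (adjusted p = 0.487) under quantile normalization, to 0.24 and 0.19 under cyclic loess and median centring, and to 0.18 (adjusted p = 0.748) when the 5 arrays of wider range alone were used. Without sham replicate 4, Fzd6 differed by 0.90, and without sham replicate 2 by 0.43.

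Fzd4, a receptor prominent in endothelium, was 12.21, 11.57, 11.81 and 12.23 in sham and 11.74, 11.80, 11.78 and 11.49 in IUGR litters and differed by -0.25 ± 0.16 (SE). Sham replicates 1 and 4 were the highest, sham replicate 3 lay just above the IUGR litters and sham replicate 2 lay among them. The mean of 10 endothelial markers was likewise highest in sham replicates 4 (11.70) and 1 (11.47), against 10.59 to 11.25 in the other 6 litters, and its part in the Fzd4 values was not tested. Fzd3, Fzd5 and Fzd9 differed by 0.28, 0.16 and -0.23, with intervals that included 0.

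**Figure D2:**
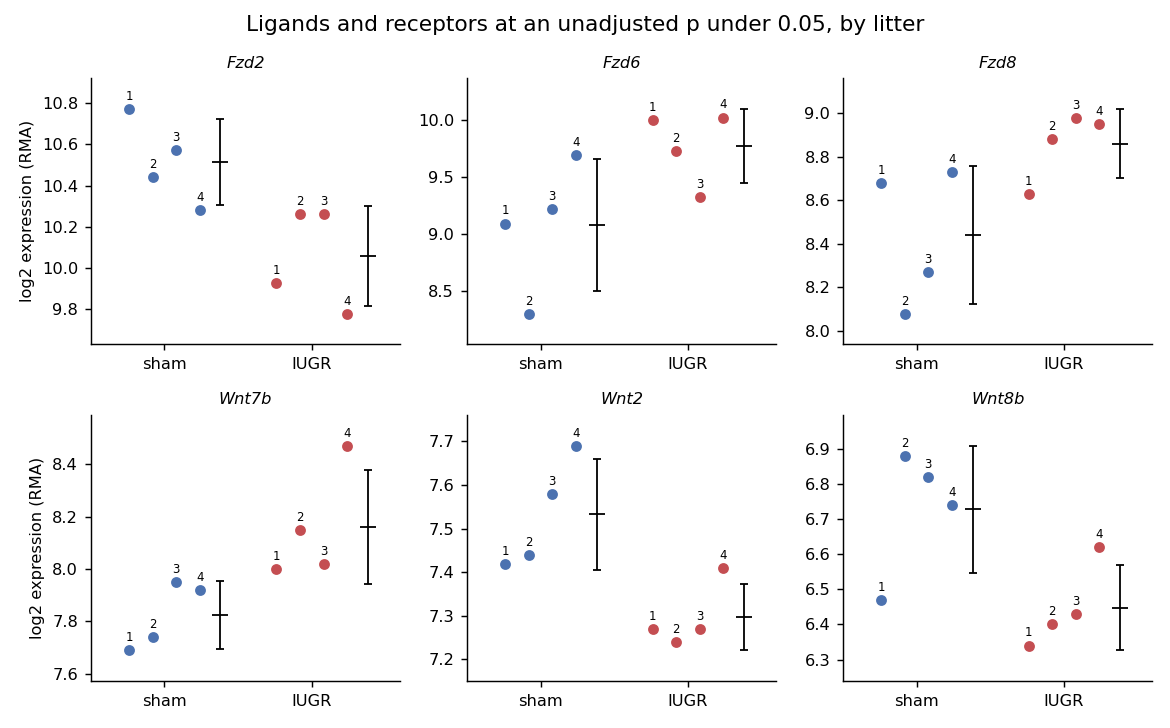
Log2 expression (y axis, RMA) of the 3 receptors and 3 ligands with an unadjusted p under 0.05 in each sham (blue) and IUGR (red) litter, with replicate numbers above the points and black bars for the mean ± SD of 4 litters. Fzd2, Wnt7b and Wnt2 separate the groups by small gaps, and Fzd6, Fzd8 and Wnt8b overlap.

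The coreceptors Lrp5 and Lrp6, which carry the signal from Wnt and Frizzled to Axin, did not pass the threshold. Lrp5 was 9.96, 9.66, 9.78 and 10.25 in sham and 10.25, 10.04, 10.28 and 10.14 in IUGR litters and differed by 0.27 (95% interval -0.05 to 0.58). Lrp6 was 10.87, 10.57, 10.86 and 11.38 in sham and 10.92, 10.96, 11.15 and 10.96 in IUGR litters and differed by 0.08 (-0.30 to 0.46). In both genes sham replicate 4 was unlike the other sham litters and lay among or above the IUGR litters.

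The R-spondin module held the 3 members with the smallest p-values higher in IUGR litters: the receptors Lgr4 and Lgr5 and the ligase Rnf43, all on the receiving cell. Rnf43 and Lgr5 are known targets of beta-catenin, as are Axin2 and the inhibitor Dkk1. RefSeq promoter sequences (rat build GRCr8) were found for 33 of the 49 members. The 250 bases before the start site are shown 5′ to 3′ on the strand of the gene. Shown are Lgr4 and Rnf43, which led the comparison, and the feedback genes Axin2 and Dkk1, which differed by 0.06 and 0.07. The Dkk1 probe set lay among the 30% of genes with the lowest mean signal, where a difference is hard to measure. After median centring Dkk1 differed by -0.16. Capitals mark a Tcf and Lef core motif, CTTTG followed by AA or AT or by TA or TT, searched on both strands. Lgr4 lies at chr3:116901718-116901967 (plus strand), Rnf43 at chr10:72963116-72963365 (plus), Axin2 at chr10:94398535-94398784 (plus) and Dkk1 at chr1:237798651-237798900 (minus).
Lgr4: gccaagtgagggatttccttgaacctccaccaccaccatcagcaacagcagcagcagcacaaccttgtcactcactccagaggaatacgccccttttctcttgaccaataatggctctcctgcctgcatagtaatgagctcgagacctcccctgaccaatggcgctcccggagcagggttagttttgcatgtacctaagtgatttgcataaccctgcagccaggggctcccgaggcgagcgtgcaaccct
Rnf43: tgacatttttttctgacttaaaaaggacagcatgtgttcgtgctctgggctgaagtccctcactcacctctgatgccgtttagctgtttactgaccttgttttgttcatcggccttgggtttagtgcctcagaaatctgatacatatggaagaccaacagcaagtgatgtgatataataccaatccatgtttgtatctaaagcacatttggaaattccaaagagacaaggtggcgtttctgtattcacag
Axin2: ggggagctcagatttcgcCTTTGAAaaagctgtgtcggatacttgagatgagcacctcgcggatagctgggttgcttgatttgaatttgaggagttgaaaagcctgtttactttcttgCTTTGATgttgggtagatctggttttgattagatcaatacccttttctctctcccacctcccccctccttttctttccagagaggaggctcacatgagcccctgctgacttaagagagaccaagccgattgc
Dkk1: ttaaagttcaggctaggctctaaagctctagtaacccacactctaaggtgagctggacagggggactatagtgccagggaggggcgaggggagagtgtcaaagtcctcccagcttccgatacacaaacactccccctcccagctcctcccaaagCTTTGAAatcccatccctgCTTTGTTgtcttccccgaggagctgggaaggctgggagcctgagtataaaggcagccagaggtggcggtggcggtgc

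The motif letters occurred at 2 places in the Axin2 window, 232 and 132 bases before the start, and at 2 in the Dkk1 window, 96 and 77 bases before it. The windows of Lgr4 and Rnf43 held none of these letters. Over the members, 4 of 33 windows (12.1%) had a match, the others being those of Sfrp5 and Wnt8a, beside 14.9% of 33469 promoters in the table. A match is a description of the letters and does not show a site in use.

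Lgr4, the broadly expressed R-spondin receptor, was 10.11, 10.19, 10.27 and 10.13 in sham litters and 11.24, 10.90, 10.96 and 11.00 in IUGR litters. The sham litters lay within 0.16 of each other and all IUGR litters were above them, by 0.63 at the nearest. The mean was 10.18 ± 0.07 in sham and 11.03 ± 0.15 in IUGR litters (SD, n = 4 each), a rise of 0.85 ± 0.10 (SE) with a 95% interval of 0.63 to 1.07 (limma adjusted p = 0.043). The groups also did not overlap after each of the 3 rescalings. The adjusted call held in 9 of 20 fits and was lost after quantile normalization (0.68 ± 0.13, adjusted p = 0.142), cyclic loess (0.68, adjusted p = 0.135), median centring (0.62, adjusted p = 0.093) with the replicate block (adjusted p = 0.226) and when the whole table of probe sets was tested (adjusted p = 0.054), and it was also lost without sham replicate 2 (adjusted p = 0.146), sham replicate 3 (0.101), IUGR replicate 1 (0.126), IUGR replicate 3 (0.099) or IUGR replicate 4 (0.077). Without sham replicate 4, the litter that stood apart, Lgr4 differed by 0.84 (adjusted p = 0.032), Rnf43 by 0.72 and Lgr5 by 0.71. With sham replicates 2, 3 and 4 left out together, which leaves 1 sham litter, the Lgr4 difference was 0.92 ± 0.16 (SE) and did not pass the threshold (limma adjusted p = 0.404).

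Rnf43, a membrane ligase that removes Frizzled receptors, was 7.75, 7.67, 7.75 and 7.44 in sham litters and 8.58, 8.18, 8.07 and 8.95 in IUGR litters. All IUGR litters were above all sham litters, with IUGR replicates 1 and 4 the highest. The difference was 0.79 ± 0.19 (SE; limma adjusted p = 0.100), between 0.62 and 0.92 with 1 litter left out, and it passed the threshold without sham replicate 1 (adjusted p = 0.044), the fit in which 18.9% of all genes passed. Without any 1 of the other 7 litters the adjusted p was 0.116 to 0.244.

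Lgr5, an R-spondin receptor known from epithelial stem cells, was 6.98, 7.73, 7.45 and 6.79 in sham and 8.71, 7.82, 7.50 and 8.36 in IUGR litters. IUGR replicates 1 and 4 stood well above the sham litters, while IUGR replicate 3 lay below sham replicate 2. The difference was 0.86 ± 0.30 (SE; limma adjusted p = 0.142), about as large as that of Lgr4 but with a larger standard error.

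Duct markers, too, separated the groups, with list means of 10.03 to 10.57 in sham and 11.05 to 11.38 in IUGR litters. Of the 9 duct markers, 7 were higher at an unadjusted p under 0.05 (77.8%, against 15.4% of all genes). Acinar list means were 9.03 to 10.65 in sham and 10.81 to 11.78 in IUGR litters, and hepatocyte list means 9.54 to 11.82 and 11.71 to 12.93. The acinar mean was highest in IUGR replicates 4 (11.78) and 1 (11.29), the litters that were highest in Rnf43 and Lgr5. The duct mean was highest in IUGR replicates 1 (11.38) and 2 (11.14). The hepatocyte mean was highest in IUGR replicates 4 (12.93) and 3 (12.54). Among the IUGR litters alone, the endocrine mean was also highest in replicates 1 (11.42) and 4 (11.17), below sham replicate 4 (12.14). So was the neural crest and Schwann mean (8.10 and 7.93), with sham replicates 3 (8.00) and 4 (8.05) between them. Epithelia such as duct and liver are known to express Lgr4, and the part of such cells in the 3 differences was not tested.

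None of the 3 measured R-spondins, the ligands of this module, had an unadjusted p under 0.05, and receptors and ligands were not tested against each other. Rspo1 was 8.57 to 9.03 in sham and 8.53 to 9.13 in IUGR litters, and Rspo2 was 6.87 to 7.31 and 6.70 to 7.02. Rspo1 differed by 0.11 and Rspo2 by -0.24, with overlapping groups in both. Rspo3 was 10.86, 10.25, 10.60 and 8.60 in sham and 9.59, 10.22, 10.51 and 9.32 in IUGR litters. Sham replicate 4 was the lowest of all 8, and the difference was -0.17 with an interval of -1.31 to 0.98. Without sham replicate 4 it was -0.66.

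**Figure D3:**
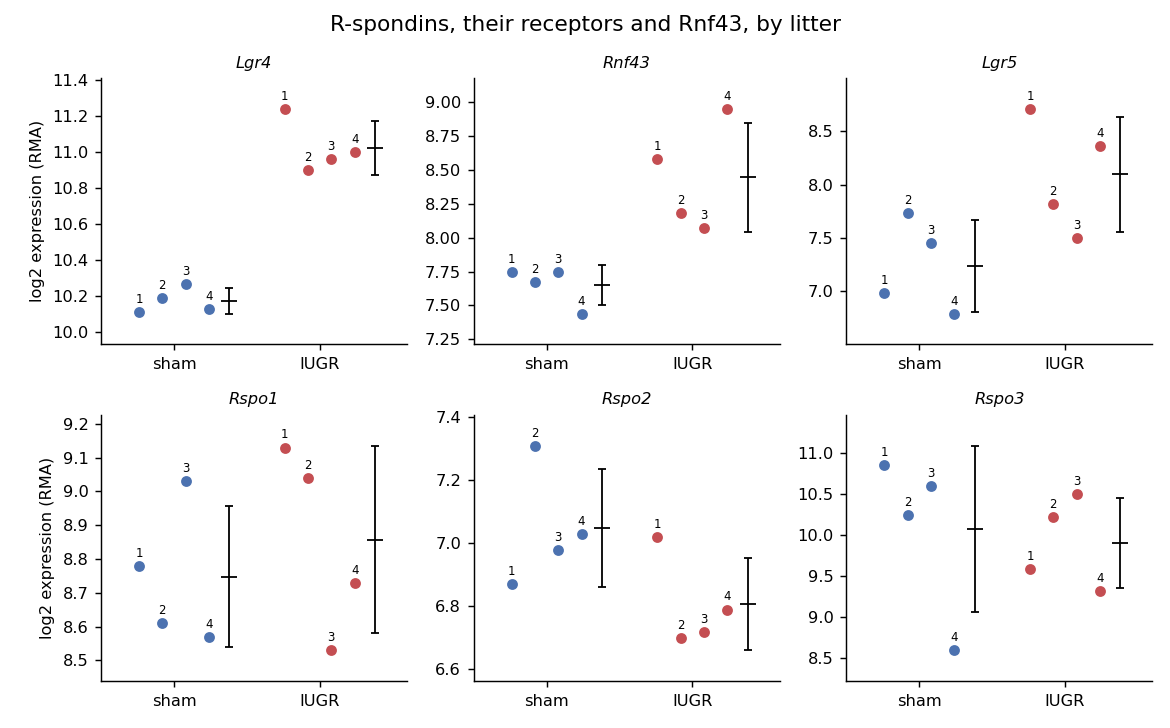
Log2 expression (y axis, RMA) of the R-spondin receptors Lgr4 and Lgr5, the ligase Rnf43 and the R-spondins Rspo1, Rspo2 and Rspo3 in each sham (blue) and IUGR (red) litter, with replicate numbers and black bars for the mean ± SD of 4 litters. Lgr4 runs from 10.11 to 10.27 in sham and from 10.90 to 11.24 in IUGR litters, while the R-spondins overlap.

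None of the 10 secreted inhibitors had an unadjusted p under 0.05 (limma adjusted p from 0.281 to 0.953), against 26.1% of all genes. Of the 10, 6 ranged over more than 1.5 (log2) between litters, namely Frzb, Sfrp1, Sfrp2, Sfrp4, Sfrp5 and Dkk2. Over all members this range was exceeded by 12 of 49 (24.5%), against 12.4% of all genes. Frzb, a secreted Frizzled-related inhibitor, had the broadest range of the 49, at 11.74, 11.50, 10.77 and 9.41 in sham and 8.89, 11.10, 11.43 and 9.35 in IUGR litters. Sham replicate 4 and IUGR replicates 1 and 4 were low and the other 5 litters high, whatever the group. The difference was -0.66 ± 0.70 (SE), -0.23 without IUGR replicate 1 and -1.15 without sham replicate 4.

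Sfrp1, of the same family, was 13.01, 12.69, 12.68 and 11.64 in sham and 11.63, 12.56, 12.48 and 10.91 in IUGR litters. The same 3 litters were low, and the difference was -0.61 ± 0.42 (SE). Fzd1 was 11.31, 10.67, 10.47 and 9.59 in sham and 9.43, 10.70, 10.92 and 9.43 in IUGR litters, again low in those 3, and differed by -0.39 ± 0.46 (SE). These genes, and the 3 litters, were chosen after the values of the members were seen. In all, 6 of 49 members (12.2%) had exactly sham replicate 4, IUGR replicate 1 and IUGR replicate 4 as their 3 lowest litters, namely Frzb, Sfrp1, Fzd1, Rspo3, Wnt5a and Wnt5b, against 4.94% of all genes. Because the litters were picked from member values, a higher share among the members is partly built in and tests nothing. Wnt5b, a close relative of Wnt5a, was 8.44, 8.04, 7.92 and 7.59 in sham and 7.39, 7.89, 8.14 and 7.36 in IUGR litters.

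Several of these 6 genes are known from pancreatic and gut mesenchyme. None of the 13 mesenchyme markers had the same 3 lowest litters, and their list mean ran from 11.62 to 12.46 in 7 litters and was 10.83 in IUGR replicate 4. The same 3 litters were lowest in 3 of 10 macrophage markers (Adgre1, Tyrobp and C1qb), 2 of 6 erythroid markers (Klf1 and Epb42) and 1 of 3 mesothelium markers (Wt1). Of all genes, 4.94% had these 3 lowest litters, and the remaining markers of the lists did not. Msln, also a mesothelium marker, was highest in sham replicate 4 (12.41) and IUGR replicate 1 (11.84). The macrophage marker Cd68 was 10.12 in sham replicate 4, below sham replicate 1 (10.27) alone. The erythroid marker Hbb-b1 was 13.78 there, below sham replicate 2 (13.86) alone. The macrophage list mean was 10.40 in sham replicate 4, 9.52 in IUGR replicate 1 and 9.73 in IUGR replicate 4, against 10.44 to 11.02 in the other litters. The part of mesenchyme, macrophage, erythroid and mesothelium cells in these 6 genes was not tested.

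**Figure D4:**
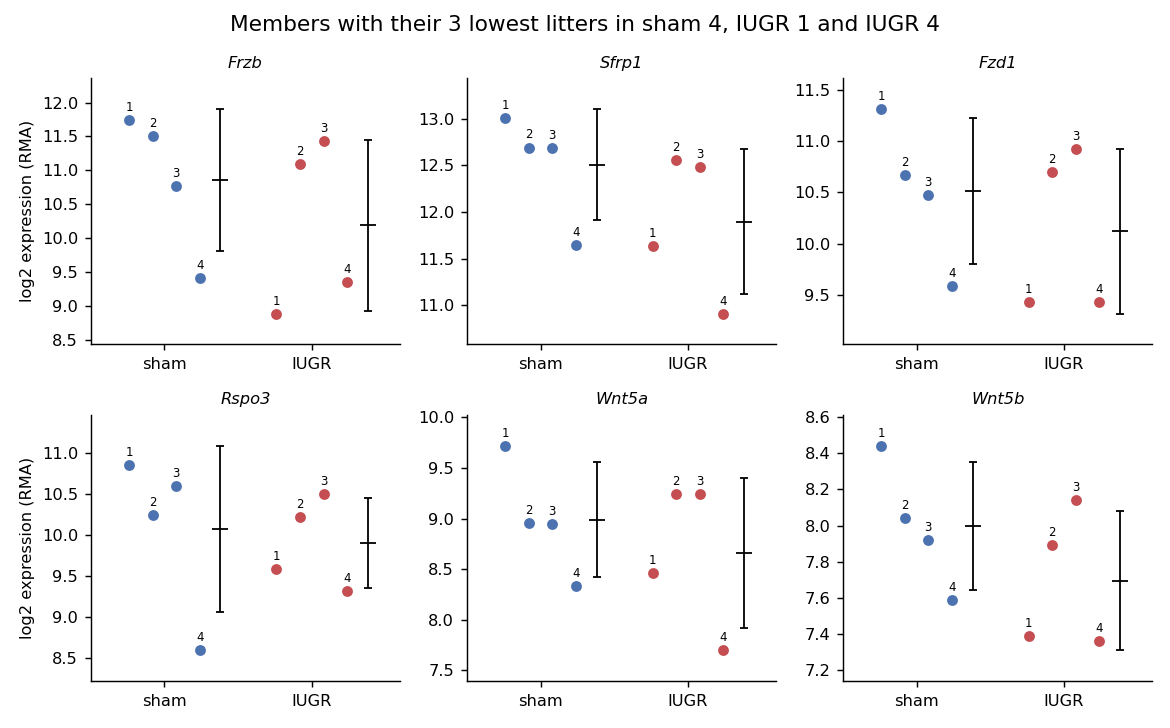
Log2 expression (y axis, RMA) in each sham (blue) and IUGR (red) litter of the 6 members whose 3 lowest litters were sham replicate 4 and IUGR replicates 1 and 4, with replicate numbers and black bars for the mean ± SD of 4 litters. The genes were selected for this order, so the plot describes it; the groups overlap in all 6.

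Sfrp5, an inhibitor of the foregut and pancreatic epithelium, was 7.67, 8.12, 8.22 and 8.47 in sham and 9.83, 9.42, 8.35 and 7.87 in IUGR litters. IUGR replicates 1 and 2 stood far above the sham litters while IUGR replicate 4 lay below 3 of them, and the difference was 0.75 ± 0.42 (SE; limma adjusted p = 0.281). Sfrp2 was 11.09, 10.85, 11.65 and 10.37 in sham and 10.81, 11.19, 9.85 and 10.40 in IUGR litters and differed by -0.42 ± 0.34 (SE). Sfrp4 was 8.27, 8.68, 9.10 and 7.84 in sham and 8.24, 8.83, 8.30 and 10.07 in IUGR litters. IUGR replicate 4 carried the Sfrp4 difference of 0.39, which was -0.02 without it.

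Dkk2, which blocks Lrp5 and Lrp6, was 7.48, 7.48, 7.73 and 8.47 in sham and 7.80, 7.66, 6.77 and 7.06 in IUGR litters, and differed by -0.47 ± 0.30 (SE). Dkk3, a divergent member of that family, was 8.16, 8.06, 8.30 and 8.79 in sham and 9.02, 8.47, 8.29 and 7.65 in IUGR litters. Its means were nearly equal, with a difference of 0.03 and an interval of -0.62 to 0.69. Wif1, which binds Wnt proteins directly, was 10.40, 9.81, 9.57 and 10.77 in sham and 9.99, 9.99, 10.11 and 9.68 in IUGR litters and differed by -0.20 ± 0.26 (SE). Dkk1 and Dkk4, both with probe sets among the dim ones, differed by 0.07 and -0.16.

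Inside the cell, Ctnnb1, which encodes beta-catenin, was 12.92, 12.83, 12.80 and 12.59 in sham and 12.88, 12.98, 12.95 and 12.90 in IUGR litters. Sham replicate 4 was the lowest and the rest lay close together. The difference was 0.14 (95% interval -0.07 to 0.35). Axin1, the scaffold of the destruction complex, was 9.53, 9.40, 9.24 and 9.28 in sham and 9.40, 9.49, 9.39 and 9.42 in IUGR litters and differed by 0.07 (-0.13 to 0.27).

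Axin2, a scaffold that is also a standard readout of beta-catenin activity, was 8.18, 8.06, 8.04 and 8.31 in sham and 8.33, 8.22, 8.10 and 8.15 in IUGR litters. The groups interleaved, and the difference of 0.06 had a 95% interval of -0.16 to 0.27. This interval leaves room for small differences in either direction, and the sign of the Axin2 and Axin1 differences turned under quantile normalization (-0.15 and -0.16), cyclic loess (-0.08 and -0.15) and median centring (-0.17 in both).

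Of the nuclear factors, Lef1, both a partner of beta-catenin and a target of it, was 9.58, 8.74, 8.86 and 8.97 in sham and 8.28, 8.90, 8.83 and 8.40 in IUGR litters. Sham replicate 1 was well above all others, IUGR replicates 1 and 4 were low, and the difference was -0.43 ± 0.22 (SE; limma adjusted p = 0.236). It was -0.25 without sham replicate 1, but -0.67 (adjusted p = 0.142) under quantile normalization and -0.98 (adjusted p = 0.477) in the 5 arrays of wider range. Tcf7 was 9.61, 9.13, 9.34 and 9.50 in sham and 9.20, 9.34, 9.20 and 8.91 in IUGR litters and differed by -0.23 ± 0.13 (SE). Lef1 and Tcf7 are also known from T cells. The mean of 8 lymphocyte markers was highest in sham replicate 1 (8.03) and lowest in IUGR replicates 4 (7.18) and 1 (7.26). Of the 8, 7 were lower on average in IUGR litters, and 4 had probe sets among the dim ones. Cd79b varied most, from 11.32 in sham replicate 1 to 8.08 in IUGR replicate 1. Cd3d, Cd247, Lck and Ptprcap were also highest in sham replicate 1. Cd3e (6.41) and Cd27 (7.22) were highest in sham replicate 4. Cd3g was higher by 0.78 in IUGR litters and highest in IUGR replicate 1 (9.08). The macrophage mean was likewise highest in sham replicate 1 (11.02) and lowest in IUGR replicates 1 (9.52) and 4 (9.73). The part of lymphocytes and macrophages in the Lef1 and Tcf7 values was not tested. Tcf7l1, a factor that mostly represses, had 3 probe sets, and the brightest differed by -0.07, the others by -0.01 and 0.11.

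Genes of the pathway outside the rule were described through 5 lists with 83 measured genes of 97. None of the 83 passed the adjusted threshold (limma adjusted p from 0.079 to 0.998), 9 were higher (10.8%, against 15.4% of all genes) and 1 lower (1.2%, against 10.7%) at an unadjusted p under 0.05, and their median difference was 0.04, as over all genes. In 7 of them the groups did not overlap, all with IUGR higher (8.43%, against 10.0% of all genes). Among 16 genes of Wnt secretion, coreceptors and extracellular regulation, 4 were higher (25%, against 15.4% of all genes) and 1 lower (6.25%, against 10.7%) at an unadjusted p under 0.05. Sostdc1, a secreted inhibitor of Wnt and BMP signals, was 8.70, 8.85, 9.01 and 9.43 in sham and 10.28, 9.98, 9.60 and 10.57 in IUGR litters. Every IUGR litter was above every sham litter, with IUGR replicates 4 and 1 the highest, and the difference was 1.11 ± 0.23 (SE; limma adjusted p = 0.079). The membrane glycoprotein gene Tpbg differed by 0.60 without overlap (limma adjusted p = 0.081), and the ciliary protein gene Tmem67 by 0.50 with overlap (adjusted p = 0.135).

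Among 19 genes of the destruction complex and cytosolic transducers, 1 was higher at an unadjusted p under 0.05 (5.26%, against 15.4% of all genes) and the median was 0.02. That gene was Tnks2, a tankyrase that marks Axin for degradation, at 11.22 to 11.41 in sham and 11.54 to 11.67 in IUGR litters (0.30 ± 0.08 SE; limma adjusted p = 0.116). Gsk3a, a kinase of the complex, differed by 0.19 and Dvl1, which relays the Frizzled signal, by 0.22. Among 18 nuclear cofactors the median was 0.02 as well. Chd8, a chromatin remodeller that binds beta-catenin, was 8.50 to 8.94 in sham and 8.98 to 9.19 in IUGR litters (0.34 ± 0.12 SE; limma adjusted p = 0.141), while the corepressor gene Tle1 and the plakoglobin gene Jup differed by 0.25 each.

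Among 12 planar polarity genes the median was 0.12. Dact2, which binds Dishevelled, was 7.88 to 8.12 in sham and 8.21 to 8.89 in IUGR litters and differed by 0.60 ± 0.15 (SE; limma adjusted p = 0.108), without overlap. Prickle3 differed by 0.35 and Prickle2 by -0.32, both with overlap. Of 18 known beta-catenin targets and feedback genes, 2 were higher (11.1%, against 15.4% of all genes) and none lower (against 10.7%) at an unadjusted p under 0.05, and the median was 0.02. Ccnd2, a cyclin of the G1 phase, was 12.20, 12.21, 12.33 and 12.43 in sham and 12.73, 12.74, 12.57 and 12.76 in IUGR litters, a difference of 0.41 ± 0.09 (SE; limma adjusted p = 0.080) without overlap. Bambi, a decoy receptor of the TGF-beta family, and the factor gene Ascl2 differed by 0.32 each, with overlapping groups.

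**Figure D5:**
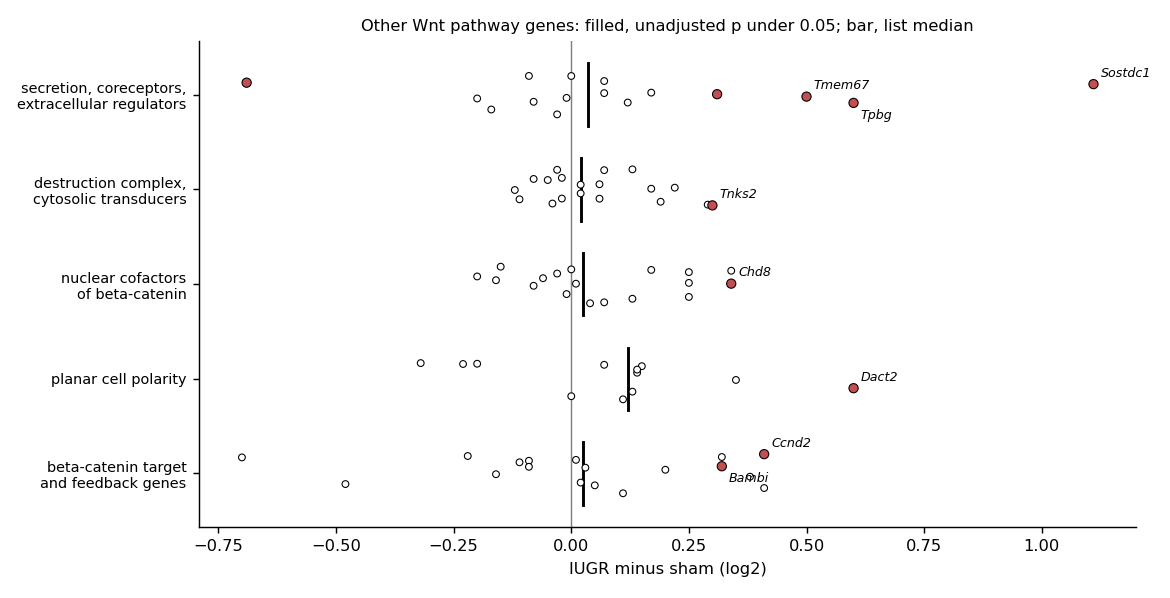
Difference between IUGR and sham litters (log2, x axis) of 83 further Wnt pathway genes in 5 lists (rows), 1 point per gene with vertical jitter for visibility. Filled points have an unadjusted p under 0.05 and bars are list medians; the medians lie between 0.02 and 0.12, and Sostdc1 at 1.11 is the farthest point.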

How the data were processed

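Total RNA of pooled fetal islets was measured on 8 arrays, 1 per litter. The deposited table holds log2 values made by the authors with RMA, per the submitters' processing notes; no version or probe filter is given in the sources used here. Of 29214 probe sets, 15310 had 1 gene in the platform annotation, 323 several and 13581 none. Of the 15310, 15279 matched a current RefSeq gene (GRCr8). The brightest probe set per gene was kept, giving 14506 genes. The values were tested as deposited with limma 3.58.1 (R 4.3.3; lmFit, eBayes, 2 groups, two-sided), with Benjamini-Hochberg adjustment over 14506 genes and a threshold of 0.05. The fit was tested on simulated data with 200 changed genes in each of 5 runs. Arrays give no read depth; precision is limited by their number. Figures were drawn with matplotlib 3.10.9.

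The members and lists were chosen with earlier results of these data known. Named were members at an unadjusted p under 0.05, 14 pathway genes whatever their values (Tcf7l2 among them was not analysed here), 3 genes by smallest p from each of 5 lists and 4 hormone genes; 11 further members, Axin1, Dkk2, Fzd1, Fzd4, Rspo3, Sfrp1, Sfrp2, Sfrp4, Tcf7l1, Wif1 and Wnt5b, were chosen after their values were seen, and the others are given by range or difference alone. Alternatives were other scalings (quantile, cyclic loess, median centring), leaving out the 30% of genes with the lowest mean, array weights, a robust prior with a trend, a replicate block, probe sets averaged or all tested, and each litter left out. The 5 arrays of wider range and the whole table of probe sets were added after the data were seen.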

Additional observations from a re-analysis of the deposited data

Results flagged for a closer look

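In 158 groups of 4 litters (the members, the other named genes and the marker list means), 8 (5.06%) had a litter whose gap to its nearest neighbour exceeded Dixon's critical share of the group's range for 4 samples; chance flags about 1 in 20. Among the members this was Wnt16, at 6.70 in IUGR replicate 1 against 6.79 to 6.81 in the other IUGR litters. Among the other pathway genes, Ccnd2 was 12.57 in IUGR replicate 3 against 12.73 to 12.76 in the other IUGR litters, and Prickle2 was lowest in sham replicate 2, at 9.27, the 3 remaining sham litters being at 9.41 to 9.42. Sham replicate 4 was the high litter for Ins2, at 14.24 against 13.78 to 13.80, for Sst, at 12.83 against 10.27 to 10.49, and for the endocrine list mean, at 12.14 against 10.60 to 10.74. IUGR replicate 4 was the low litter for the endothelial list mean, at 10.59 against 11.19 to 11.25, and for the mesothelium list mean, at 8.75 against 9.15 to 9.20.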

How the results depend on the processing

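Of the 50 named genes, 35 kept the sign of their difference under all 19 alternatives. Lgr4, Rnf43, Lgr5, Fzd2, Fzd6, Fzd8, Wnt2, Wnt7b and Wnt8b, named for an unadjusted p under 0.05 in these data, were among them. Wnt8b was not in the fit without dim genes. The robust prior with a trend, the replicate block and the fit without dim genes leave each difference unchanged. Testing all probe sets or the whole table does so too, and the sign could not turn in those fits. The cause of the changes below was not tested. The 1 member past the adjusted threshold became 0 after quantile normalization, cyclic loess, median centring, with the replicate block, on the 5 arrays of wider range and in the whole table, 16 with array weights, and 0 to 6 with 1 litter left out. The count over all genes was 36 as deposited, 0 in each of those settings but median centring (1), 6358 with array weights, 59 without dim genes, and 0 to 2738 with 1 litter left out. Members at an unadjusted p under 0.05 were recounted after quantile normalization, cyclic loess, median centring and with array weights. Those higher (6) numbered 3, 3, 2 and 13 in that order (6.12%, 6.12%, 4.08% and 26.5%, against 10.5%, 10.8%, 4.74% and 32.2% of all genes). Those lower (3) numbered 8, 6, 14 and 10 (16.3%, 12.2%, 28.6% and 20.4%, against 12.3%, 11.9%, 30.6% and 21.2%). Without dim genes 1 was lower (2.56%, against 3.05%). With 1 litter left out, 3 to 7 members were higher (against 11.5% to 21% of all genes) and 1 to 9 lower (against 6.27% to 15.9%). Members without overlap (5, or 10.2%, against 15.5% of all genes) numbered 8 after quantile normalization and 5 to 13 with 1 litter left out. The share of all genes without overlap was counted for the deposited values alone, so these other counts have no background beside them. Leaving out a litter cannot lower the count of members without overlap, because fewer values are left to overlap. The median of the members (-0.11) was -0.34 after median centring, 0.03 on the 5 arrays and -0.11 to -0.03 with 1 litter left out.

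The sign turned after quantile normalization for Axin1 (-0.16), Axin2 (-0.15), Dkk3 (-0.19), Lrp6 (-0.06), Wnt4 (-0.11), Dvl1 (-0.01) and Sst (-0.03), after cyclic loess for Axin1 (-0.15), Axin2 (-0.08), Dkk3 (-0.12), Lrp6 (-0.07), Wnt4 (-0.04) and Sst (-0.05), and after median centring for Axin1 (-0.17), Axin2 (-0.17), Ctnnb1 (-0.09), Dkk3 (-0.20), Lrp6 (-0.15), Wnt4 (-0.11), Dvl1 (-0.02), Gsk3a (-0.04), Gcg (-0.15) and Sst (-0.13). It turned with array weights for Sfrp4 (-0.35), Tcf7l1 (0.09) and Wif1 (0.35), with the mean of probe sets for Tcf7l1 (0.01), and on the 5 arrays for Axin1 (-0.10) and Prickle3 (-0.10). With 1 litter left out the differences ran from -0.19 to 0.27 for Dkk3, 0.00 to 0.20 for Gcg, -0.04 to 0.23 for Lrp6, -0.66 to 0.09 for Rspo3, -0.02 to 0.60 for Sfrp4, -0.15 to 0.71 for Sst, -0.16 to 0.07 for Tcf7l1 and -0.38 to 0.02 for Wif1. The labels state no pairing of litters by replicate number. Deviations of same-numbered litters correlated at -0.435, 0.095, -0.124 and -0.128. Because the arrays differed as a whole, these values cannot show whether same-numbered litters were handled together. With the replicate block Lgr4 was 0.85 ± 0.12 (adjusted p = 0.226). The dimmest 30% of genes held 10 of the 49 members, whose differences may be understated.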

Other observations

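Sham replicate 4 held the lowest value of the 8 litters in 30.8% of all genes but in 5 of 49 Wnt pathway genes (10.2%), and the highest in 19.9% of all genes and in 13 of the 49 (26.5%). Sham replicate 1 was the lowest in 9.42% of all genes and in 10 members (20.4%). The range over the 8 litters had a median of 0.72 (log2) both in the members and in all genes, from 0.22 in Wnt10b to 2.85 in Frzb.

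In the wider pathway lists, Cthrc1, a secreted matrix protein gene, was the 1 gene lower at an unadjusted p under 0.05, with a difference of -0.69 ± 0.24 (SE; limma adjusted p = 0.143), and Porcn, which attaches the lipid to Wnt proteins, was higher by 0.31 ± 0.13 (SE; limma adjusted p = 0.177). Both were named after their values were seen.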
